A study of Mus musculus with 89 samples.

Results

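Interferon-stimulated genes were followed in bulk RNA-seq of the choroid plexus and hippocampus of infused aged mice and of the hippocampus of Klotho-deficient mice. The members were 44 mouse gene symbols from a list of the pathway, a rule that uses names and no expression threshold, although the list was drawn up with earlier results of these data known. Of these, 42 were among the 13662 genes of the choroid plexus table, 41 among the 14440 genes of the hippocampus table and 39 among the 14964 genes of the Klotho table, and 39 were in all 3 tables, which together held 16133 symbols. Zbp1, a sensor of Z-form nucleic acids, was in none of the tables. The chemokine Cxcl10 was absent from the choroid plexus and Klotho tables, Oas1a and Ifi44 from the hippocampus and Klotho tables, and Oas2 from the Klotho table.

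Aged wild-type male mice were infused with saline (sham), with serum of young mice (YS), or with young serum from which extracellular vesicles had been depleted (YDS). Each dose of serum was 100 µL, given every 3 days over 25 days. The choroid plexus, the tissue that makes cerebrospinal fluid and forms a barrier between blood and brain, was sequenced from 8 sham, 12 YS and 14 YDS mice, and the hippocampus from 10, 14 and 14 mice. Both tissues came from the same animal for 34 mice. The labels of the series do not give the arm of an infused mouse, and it was read from the column names of the deposited tables. The Klotho libraries came from 4 α-Klotho knockout mice (Klko) and 4 wild-type mice (WT-y) of 2 months and from 5 Klotho heterozygous mice (Klhet) and 4 wild-type mice (WT-o) of 9 months. Klko and Klhet mice therefore differ in age as well as in genotype, and they carry their allele in every tissue. The study's methods call this tissue hippocampus, whereas the labels say brain and the extraction text names cortex.

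Interferons are secreted proteins that cells release after sensing viral or misplaced nucleic acids. Type I interferon binds a cell-surface receptor whose kinases, JAK1 and TYK2, phosphorylate STAT proteins, among them STAT2, which joins IRF9 in a complex that binds the interferon-stimulated response element in promoters. Interferon gamma acts through another receptor and turns on an overlapping set of genes, among them the guanylate-binding proteins and the genes that load peptides onto MHC class I. The members cover these roles: signalling (Stat2, Irf7, Irf9), the ubiquitin-like modifier ISG15 and its enzymes (Isg15, Usp18, Herc6, Trim25), sensors of foreign RNA or DNA (Ifih1, Ddx58, Dhx58, Zbp1, Eif2ak2 and the oligoadenylate synthetases), antiviral effectors such as the Ifit proteins, Parp9 with its partner Dtx3l, guanylate-binding proteins, and antigen processing. In the brain the choroid plexus is known as a place of type I interferon signalling in old age, and microglia are a main responder in the parenchyma.

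To show the element by which these genes are usually recognised, the promoter windows of 5 members on which the comparisons turn are printed here, each from 250 bases before to 50 bases after the RefSeq gene start in build GRCm38.p6, 5′ to 3′ on the strand of the gene. Capitals mark GAAA, any 2 bases and GAAA again, the core of the interferon-stimulated response element, on either strand (read from the other strand, TTTC, any 2 bases, TTTC). The coordinates given are those of the windows. The window of Ifit3, an RNA-binding antiviral protein, is chr19:34583279-34583578 on the plus strand. That of Gbp2, a guanylate-binding protein that acts on pathogen-containing vacuoles, is chr3:142620413-142620712 on the plus strand. That of Eif2ak2, the double-stranded RNA-activated kinase PKR, is chr17:78882523-78882822 on the minus strand. That of Stat2 is chr10:128270248-128270547 on the plus strand. That of Oasl2, an oligoadenylate synthetase-like protein, is chr5:114896684-114896983 on the plus strand.
Ifit3: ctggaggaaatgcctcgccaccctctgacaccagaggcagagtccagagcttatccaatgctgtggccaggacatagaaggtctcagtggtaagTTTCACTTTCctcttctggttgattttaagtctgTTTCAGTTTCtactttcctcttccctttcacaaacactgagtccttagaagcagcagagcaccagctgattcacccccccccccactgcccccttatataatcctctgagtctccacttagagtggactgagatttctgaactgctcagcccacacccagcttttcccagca
Gbp2: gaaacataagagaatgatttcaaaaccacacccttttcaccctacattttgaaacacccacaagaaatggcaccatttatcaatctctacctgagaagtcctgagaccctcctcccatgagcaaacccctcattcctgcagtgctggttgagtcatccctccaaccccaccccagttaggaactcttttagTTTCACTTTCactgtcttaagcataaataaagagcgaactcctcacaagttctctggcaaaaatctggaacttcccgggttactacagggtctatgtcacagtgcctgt
Eif2ak2: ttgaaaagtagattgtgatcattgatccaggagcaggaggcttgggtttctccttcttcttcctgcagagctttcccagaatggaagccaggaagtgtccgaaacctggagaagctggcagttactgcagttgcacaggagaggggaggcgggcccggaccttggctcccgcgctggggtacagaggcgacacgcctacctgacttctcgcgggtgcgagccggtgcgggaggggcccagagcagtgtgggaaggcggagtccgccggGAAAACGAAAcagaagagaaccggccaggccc
Stat2: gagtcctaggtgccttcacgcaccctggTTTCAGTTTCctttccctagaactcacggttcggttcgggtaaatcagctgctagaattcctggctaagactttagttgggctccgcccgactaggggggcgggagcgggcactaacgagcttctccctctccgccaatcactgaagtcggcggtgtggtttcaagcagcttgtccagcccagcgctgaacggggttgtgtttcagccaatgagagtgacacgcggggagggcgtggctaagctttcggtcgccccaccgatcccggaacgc
Oasl2: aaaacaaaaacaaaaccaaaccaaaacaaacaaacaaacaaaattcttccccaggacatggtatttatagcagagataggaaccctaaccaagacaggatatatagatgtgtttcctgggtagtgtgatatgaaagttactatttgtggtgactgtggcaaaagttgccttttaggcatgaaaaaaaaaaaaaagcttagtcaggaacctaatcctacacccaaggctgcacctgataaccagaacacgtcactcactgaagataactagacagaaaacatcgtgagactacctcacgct

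Ifit3 had 2 matches in this window, Gbp2, Eif2ak2 and Stat2 had 1 each, and Oasl2 had none. A RefSeq window was available for 34 of the 44 members. This core was found in 17 of these 34 windows (50%), against 3.99% of the windows of 27025 mouse symbols. The longer form with a C after the second GAAA, which contains the shorter one, was found in 15 (44.1%), against 0.944%. TTC, any 3 bases and GAA, the gamma-activated site, was found in 8 (23.5%), against 9.55%. A match describes these letters only and is not evidence of binding.

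Counted reads per library ranged from 27165663 to 46836730 in the choroid plexus, from 23231524 to 40801000 in the hippocampus and from 26338890 to 40229041 in the Klotho hippocampus. Values are CPM, counted reads scaled to the library's total, the unit in which they were deposited. All comparisons were made with limma on log2(CPM + 0.5), two-sided, with the Benjamini-Hochberg adjustment applied across the whole table, and a gene was called at an adjusted p under 0.05. Replicates are separate mice. The epithelial markers of the choroid plexus summed to between 148373 and 268038 CPM in the choroid plexus libraries, and those of neurons to between 11193 and 14323 CPM in the hippocampus. Kl itself was at 2.9 to 23.3 CPM in Klko, 62.3 to 237 CPM in WT-y, 15.6 to 128 CPM in Klhet and 127 to 256 CPM in WT-o. Several libraries stood apart. In the choroid plexus, 12 libraries (3 sham, 4 YS, 5 YDS) held 163015 to 235998 CPM of Ttr, the main epithelial transcript, and the other 22 held 102233 to 137424 CPM. The choroid plexus library C430 (YS) had the highest means of the microglia, border macrophage, endothelium and fibroblast markers, and 6 choroid plexus libraries (1 sham, 5 YS, 0 YDS) had a border macrophage marker mean over 2 on the log2 scale. In the hippocampus, 4 libraries carried Ttr at 158 to 1230 CPM against a median of 8.35 CPM in the others. In the Klotho hippocampus Ttr was at 245 CPM in Klko 1 and 220 CPM in Klhet 5, which also had the lowest Kl of their groups (2.9 and 15.6 CPM), and at 2265 to 7717 CPM in the other 15 libraries. Striatal markers were high in Klko 1, 3 and 4, WT-y 2 and WT-o 2. The Y-linked gene Ddx3y was at 0.0592 CPM in Klko 3 and at 36.6 to 104 CPM in the other Klotho libraries.

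Most members had a higher CPM in the choroid plexus than in the hippocampus. Of the 40 members present in both infusion tables, 36 had a higher median CPM in the choroid plexus, against 51.7% of the 12609 genes in both tables. For 19 members the lowest choroid plexus library lay above the highest hippocampus library, against 19% of all genes. Ifit2, Cmpk2, Gbp2 and Psmb8 had the lower median there. Since the tables were normalised separately, the tissues were set side by side without a test. In bulk tissue, fewer cells of a type and less RNA per cell cannot be told apart. Per kilobase of exon (GENCODE annotation), the median level in the choroid plexus was highest for Ifi27, a small mitochondrial and membrane protein, at 610 CPM per kb. It was followed by B2m, the light chain of MHC class I, at 270, Bst2, which tethers budding virions to the cell, at 252, Ifitm3, which blocks viral membrane fusion, at 168, and Lgals3bp, a secreted glycoprotein, at 149 CPM per kb. The median over the 42 members was 6.16 CPM per kb, and Sp100 and Oas2 were lowest at 0.196 and 0.222. In the hippocampus B2m led at 54.7 CPM per kb, then Ifi27 at 20.7, Ifitm3 at 10.4, Cmpk2, a mitochondrial nucleotide kinase, at 5.49, Stat2 at 4.56 and Ifit3 at 4.12, with a median over members of 0.802 and Nlrc5, the transactivator of MHC class I genes, lowest at 0.115. The Klotho hippocampus had the same leading members, B2m at 67.8, Ifi27 at 32.9 and Ifitm3 at 17.1 CPM per kb, with a median of 1.09.

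Overlapping and near-identical genes limit some of these levels. Psmb9 (chr17:34181987-34187764) and Tap1 (chr17:34187553-34197225) overlap in the GRCm38 annotation, as do Dtx3l (chr16:35926511-35939151) and Parp9 (chr16:35938470-35972605), and the strand setting of the read counting is not given in the sources used here. Members of the Ifit, Oas, Gbp, Trim30 and Ifi27 families have close paralogs among which reads may have been split.

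Averaged over the members, log2(CPM + 0.5) in the choroid plexus ran from 3.82 to 6.06 in sham mice with a median of 4.97, from 3.76 to 5.46 in YS mice with a median of 4.23, and from 3.30 to 5.16 in YDS mice with a median of 4.30. The 3 arms overlapped over most of their range. In the hippocampus the mean ran from 1.69 to 3.12 in sham (median 2.12), from 1.72 to 2.87 in YS (median 2.18) and from 1.78 to 2.43 in YDS (median 1.93), again with overlap, and the YDS mice had the narrowest range. In the Klotho hippocampus the means of the groups were 2.42 ± 0.16 (SD, n = 4) in Klko, 2.36 ± 0.16 (n = 4) in WT-y, 2.45 ± 0.21 (n = 5) in Klhet and 2.60 ± 0.16 (n = 4) in WT-o. These averages are over 42, 41 and 39 members and are given as a description, with no test.

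**Figure D1:**
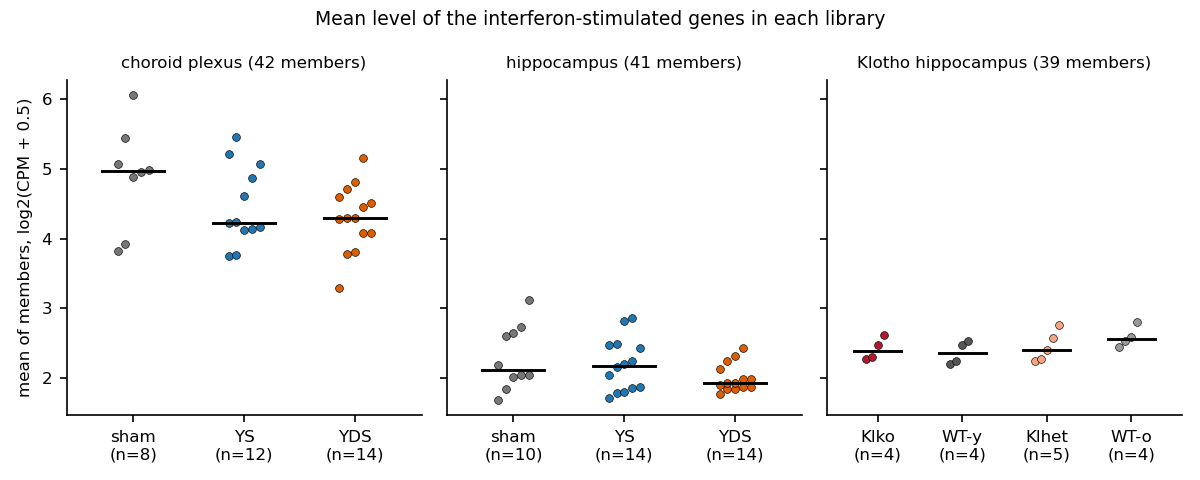
Mean of log2(CPM + 0.5) over the interferon-stimulated genes in each library (points) of the choroid plexus by infusion arm, the hippocampus by infusion arm and the Klotho hippocampus by genotype group, with the group median as a line. Choroid plexus libraries run from 3.30 to 6.06 and all lie above the hippocampus libraries, which run from 1.69 to 3.12, and the arms overlap within each tissue.

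The members varied from mouse to mouse more than most genes did. In the choroid plexus, the median within-arm SD of the members was 0.68 on the log2 scale against 0.31 over all genes, 39 of 42 members lay above that all-gene median, and 20 lay above the 90th percentile. Isg15 had an SD of 1.42, Oasl2 of 1.35, Ifit1 of 1.33, Ifit3 of 1.26 and Ifi44 of 1.22, whereas Ifi27, Tap2 and Tap1 had SDs of 0.23, 0.26 and 0.31. Ifi44 spanned 0.707 to 73.2 CPM over the 34 libraries, a ratio of 104, Isg15 spanned 0.995 to 93 CPM, a ratio of 93.4, and Oasl2 spanned 2.12 to 193 CPM, a ratio of 91.2. In the hippocampus the median SD was 0.58 against 0.30 over all genes, with 38 of 41 members above the all-gene median and 16 above the 90th percentile. In the Klotho hippocampus it was 0.28 against 0.19, with 33 of 39 members above the all-gene median. Genes were not matched for level in these comparisons. Of the hippocampus members with the highest mean levels, B2m was at the 77.1th percentile of the SD over all genes, Ifi27 at 16.8, Stat2 at 28.4 and Cmpk2 at 40.4.

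They also varied together. After centring on the arm, the median Pearson's r over all 861 pairs of members across the 34 choroid plexus libraries was 0.63, and 92.3% of pairs were positive, against a median of 0.08 and 54.3% over all pairs of genes. The median was 0.35 over 820 pairs in 38 hippocampus libraries (0.02 over all genes) and 0.33 over 741 pairs in 17 Klotho libraries (0.03 over all genes). The libraries of a pair of genes share depth and tissue composition, so these values describe the libraries. Oasl2 and Samd9l in the choroid plexus followed the mean of the other members most closely (r = 0.96), then Ifit1 and Ifit3 (r = 0.95). Gbp2 (0.12), Sp100 (0.20), Lgals3bp (0.36), Psmb8 (0.37) and Psmb9 (0.40) followed it least. Psmb8 and Psmb9 are the interferon-inducible subunits of the immunoproteasome, which cuts peptides for MHC class I.

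Single mice held many of the extremes, and they are named here as in the labels, by C (choroid plexus) or H (hippocampus) and the number of the animal. The choroid plexus of sham mouse C410 was the highest of the 34 libraries for 27 of the 42 members, and among them were Ifit1 at 256 CPM, Irf7, a transcription factor that amplifies interferon production, at 275 CPM, Ifit3 at 200 CPM, Oasl2 at 193 CPM, Isg15 at 93 CPM and Ifi44 at 73.2 CPM. YS mouse C430 was highest for 7 members and YDS mouse C418 for 4. YDS mouse C431 was lowest for 21 members and YS mouse C404 for 12. In the hippocampus the extremes were less concentrated: sham mouse H435 was highest for 13 of 41 members, YS mouse H423 for 7 and YS mouse H413 for 6. The library H435 also had the highest microglia marker mean, 5.99 on the log2 scale.

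The genes outside the list whose arm-centred levels were most like the members' mean were largely of the same kind in the choroid plexus. The first 10 over 34 libraries were Parp10 (r = 0.96), Oas1g (0.95), Ddx60 (0.94), Irgm1 (0.94), Igtp (0.93), Ifit3b (0.93), Trim34a (0.93), Trim30d (0.93), Gm20559 (0.91) and Apol9a (0.90). Irgm1 and Igtp encode interferon-inducible GTPases. In the hippocampus, over 38 libraries, they included Ly6a (0.77), Cd274 (0.75), Clic1 (0.75), Gbp6 (0.73), Igtp (0.73), Ifit3b (0.71), Slfn5 (0.70), H2-Ab1 (0.70) and Vim (0.69). Cd274 encodes the checkpoint ligand PD-L1. In the 17 Klotho libraries the list was led by Tm4sf1 (0.89), Serpinb6a (0.88), Rnf149 (0.87), H2-K1 (0.87) and Irgm2 (0.85), of which H2-K1 is an MHC class I heavy chain and Irgm2 an interferon-inducible GTPase.

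In the choroid plexus of YDS mice, all 42 members had a lower mean than in sham mice, and no member was called. The differences ran from -1.64 (Ifit3) to -0.09 (Ifi27) on the log2 scale, with a median of -0.44, while the median over all genes was 0.02. No gene of the table was called by limma (0% of 13662 genes), none of the members by edgeR or DESeq2. There were 13 of 42 members lower and 0 higher at an unadjusted p under 0.05, against 0.446% of all genes lower and 0.988% higher. The members vary together (median pairwise r of 0.63 in this tissue), so neither these 13 nor the 42 negative signs are independent. On recovered reads, edgeR and DESeq2 each had 23 members lower at that level, and shares of all genes under these 2 methods are not given. The 13 were the antiviral effectors Ifit1, Ifit3 and Ifi44, the sensors Dhx58, Oas1a, Oas2 and Oasl2, Isg15 and Usp18, the protease that removes ISG15, Irf7, Gbp3, and both subunits of the peptide transporter, Tap1 and Tap2. By role, 4 of 7 sensors, 3 of 16 antiviral effectors, 2 of 4 ISG15 genes and 2 of 6 antigen-processing genes were among them, and 0 of 3 in the Parp9, Parp14 and Dtx3l group.

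Ifit3 in the choroid plexus was at 7.76 CPM in the lowest, 40.4 in the median and 200 in the highest sham mouse, and at 4.01, 14.9 and 76.6 CPM in YDS mice. Most YDS mice lay below the sham median, with full overlap of the lower sham values. The difference was -1.64 ± 0.54 (SE, log2 scale, limma, p = 0.00428, adjusted p = 1). Oasl2 was at 3.75, 34.5 and 193 CPM in sham and at 2.12, 7.91 and 41.3 CPM in YDS mice (lowest, median, highest), a difference of -1.61 ± 0.57 (p = 0.00801, adjusted p = 1). Ifi44 was at 1.23, 10.1 and 73.2 CPM against 0.707, 2.6 and 10 CPM, a difference of -1.41 ± 0.52 (p = 0.0104, adjusted p = 1). For Ifi44 the highest YDS mouse was just under the sham median. Tap2 varied little, at 41.3, 49.7 and 64.1 CPM in sham and 28.5, 41.8 and 52.7 CPM in YDS mice, a difference of -0.33 ± 0.11 (p = 0.00618, adjusted p = 1). Isg15 was at 3.26, 26.6 and 93 CPM in sham and 0.995, 9.2 and 52.5 CPM in YDS mice.

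The size and the direction of this difference depended on which libraries entered. Without sham mouse C410, 4 members were lower at an unadjusted p under 0.05 and the median difference was -0.31, with all 42 still negative. Among the 22 libraries lower in Ttr the median was -0.81 and 36 members were lower at that level, against 452 of 13662 genes lower and 299 higher, whereas among the 12 libraries high in Ttr the median was 0.05, with 22 members positive and 20 negative, 1 member higher and 0 lower, against 1423 genes higher and 101 lower. The members' mean ran from 3.92 to 6.06 in sham and from 3.30 to 4.72 in YDS mice in the lower set, and from 3.82 to 4.96 and from 4.09 to 5.16 in the high set. Sham mouse C410 is 1 of the 5 sham mice of the lower set, which was not fitted without this mouse. The difference between the sets was not tested. The mean of 10 microglia markers ran from 2.06 to 2.92 on the log2 scale in YDS mice and from 2.24 to 3.47 in sham mice, and with it as a covariate the median was -0.31, with 5 members lower. The part of microglia in the result was otherwise not tested. For the fits without C410 and with this covariate, shares of all genes at an unadjusted p are not given. With trimmed-mean (TMM) factors, all 42 members remained negative and 18 were lower at an unadjusted p under 0.05, while the split of all genes at that level moved from 135 higher and 61 lower to 76 higher and 98 lower.

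Between YS and sham mice the choroid plexus members were also lower on balance, and none was called (0% of all genes called by limma, and 0 members by edgeR or DESeq2). Of 42 members, 37 had negative and 5 positive differences, from -1.19 (Isg15) to 0.53 (Gbp2), with a median of -0.36. By limma 2 members were lower and 0 higher at an unadjusted p under 0.05, against 0.139% of all genes lower and 1.97% higher. By edgeR 13 and by DESeq2 16 members were lower, with no share of all genes given. Both comparisons use the same 8 sham libraries, so their directions are not independent. Dhx58, a regulator of RNA sensing, was at 3, 9.71 and 28.4 CPM (lowest, median, highest) in sham and at 1.9, 3.81 and 14.9 CPM in YS mice. The difference was -0.81 ± 0.35 (p = 0.029, adjusted p = 1). Ifit3 in YS mice was at 4.79, 13.2 and 94.3 CPM, a difference from sham of -1.17 ± 0.55 (p = 0.0419, adjusted p = 1).

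Ifit1 was at 15.2, 73.4 and 256 CPM in sham and 7.42, 28 and 138 CPM in YS mice, and Gbp3 at 15.1, 69.1 and 204 CPM in sham and 9.7, 32.6 and 64 CPM in YS mice. Their differences were -1.11 ± 0.58 and -0.82 ± 0.43, with unadjusted p-values of 0.0646 and 0.0642 and adjusted p-values of 1. Without sham mouse C410 no member passed an unadjusted p of 0.05 and the median was -0.21. Without YS mouse C430, 8 members were lower at that level. In the libraries lower in Ttr the median was -0.50 with 15 members lower, and in those high in Ttr -0.08 with 0. The microglia marker mean ran from 2.24 to 3.47 on the log2 scale in sham, from 2.75 to 4.67 in YS and from 2.06 to 2.92 in YDS mice. With this mean as a covariate 20 members were lower and the median was -0.51. None of these fits called a gene, and shares of all genes at an unadjusted p are not given for them. With TMM factors the split of all genes at an unadjusted p under 0.05 moved from 269 higher and 19 lower to 181 and 50, and 3 members were lower.

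**Figure D2:**
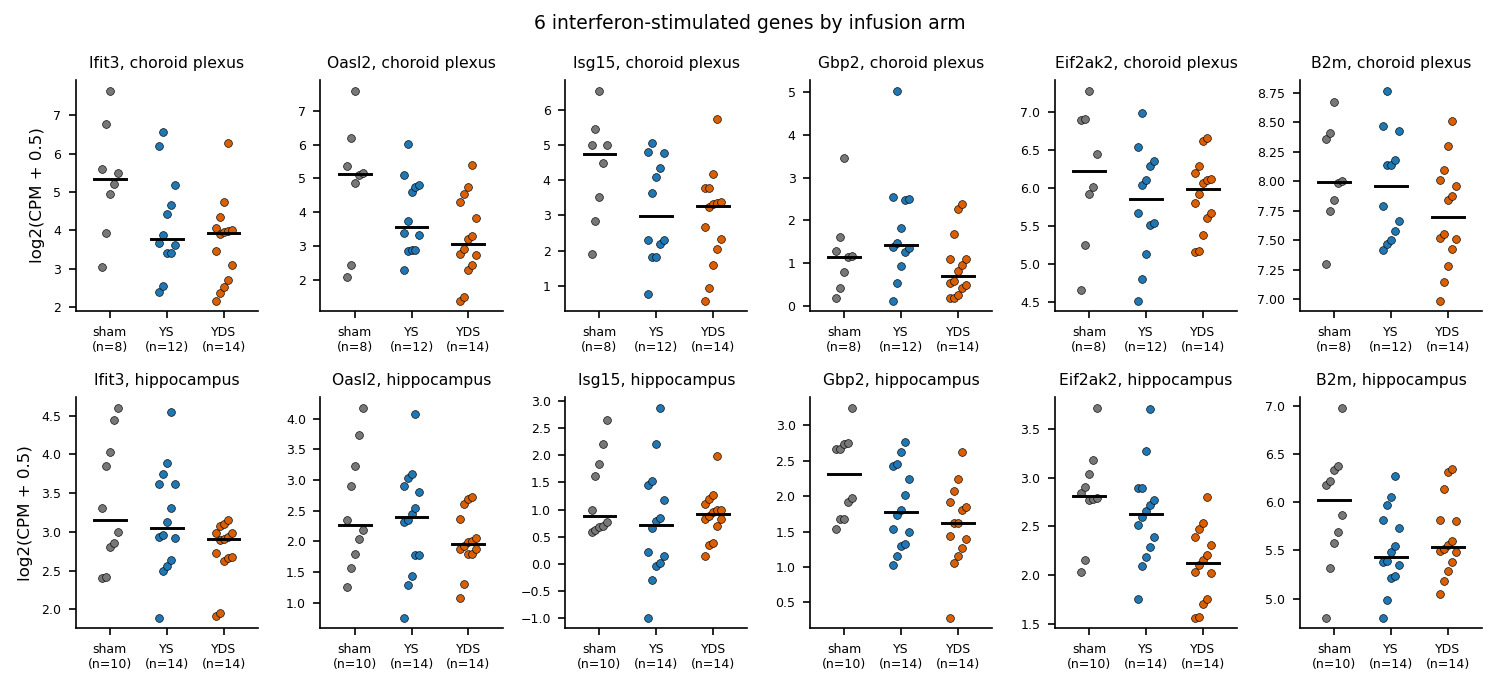
Level of Ifit3, Oasl2, Isg15, Gbp2, Eif2ak2 and B2m, as log2(CPM + 0.5), in each choroid plexus (upper row) and hippocampus library (lower row) by infusion arm, with the median as a line and a separate vertical axis for each panel. Sham medians of Ifit3 and Oasl2 in the choroid plexus (40.4 and 34.5 CPM) lie above most YS and YDS mice, Gbp2 in the choroid plexus has a single YS mouse far above the rest, and Eif2ak2 in the hippocampus is lowest in YDS mice.

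The serum of YDS mice had been depleted of extracellular vesicles, and the paper does not exclude a small possibility that this step also lowered plasma protein and HDL. Between YS and YDS mice the choroid plexus members differed little. The differences ran from -0.12 (Eif2ak2) to 0.86 (Gbp2) with a median of 0.09, 32 positive and 10 negative. None was called by limma (0% of all genes), and at an unadjusted p under 0.05 4 members were higher and 0 lower in YS mice, against 6.98% and 0.527% of all genes, so their share is near the background. These were Sp100, a nuclear body protein, Oas2, Gbp2 and Psmb8. Sp100 was at 1.31, 1.92 and 13.9 CPM in YS and 0.75, 1.21 and 2.22 CPM in YDS mice (lowest, median, highest), a difference of 0.74 ± 0.24 (p = 0.00368, adjusted p = 0.302). Oas2 was at 0.361, 1.27 and 7.99 CPM in YS and 0.209, 0.585 and 1.53 CPM in YDS mice, a difference of 0.71 ± 0.25 (p = 0.00861, adjusted p = 0.358).

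Gbp2 was at 0.585, 2.16 and 32.5 CPM in YS and 0.63, 1.12 and 4.75 CPM in YDS mice (0.86 ± 0.39, p = 0.0323, adjusted p = 0.548), and Psmb8 at 2.26, 3.59 and 14.3 CPM against 1.6, 2.73 and 4.75 CPM (0.45 ± 0.22, p = 0.0424, adjusted p = 0.609). The highest YS value of all 4 genes was that of mouse C430. Without this mouse 2 members remained at an unadjusted p under 0.05 and the median was 0.03, and without the 6 libraries high in border macrophage markers there were 0. With the microglia marker mean as a covariate there were 0, the median was -0.20, and Oas2 (-0.039), Gbp2 (-0.20) and Psmb8 (-0.13) turned negative. On recovered reads edgeR called Sp100 (1.20, adjusted p = 0.0292) among 394 higher and 6 lower genes of 13662, and DESeq2 called Sp100, Oas2 and Gbp2 (1.21, 1.24 and 1.55) among 546 higher and 17 lower genes. With TMM factors the split of all genes at an unadjusted p under 0.05 moved from 954 higher and 72 lower to 938 and 189.

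In the hippocampus, YDS mice were again below sham mice for most members, and none was called. Of 41 members, 35 had negative and 6 positive differences, from -0.71 (Eif2ak2) to 0.08 (Ifi35), with a median of -0.28 against -0.01 over all genes. As the members vary together in this tissue (median pairwise r of 0.35), neither the signs nor the counts below are independent. Of all genes, 0% were called by limma, and neither edgeR nor DESeq2 called a member. At an unadjusted p under 0.05, limma had 8 of 41 members lower and 0 higher, against 5.93% of all genes lower and 6.48% higher. By edgeR 15 and by DESeq2 16 members were lower, with no share of all genes given. The 8 were Eif2ak2, Gbp2, Gbp7, Ifit1, Ifit3, Rsad2, Ifih1 and Psmb8. By role they made up 2 of 6 sensors, 3 of 15 antiviral effectors, 2 of 3 guanylate-binding proteins and 1 of 6 antigen-processing genes.

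Eif2ak2 was at 3.57, 6.55 and 12.7 CPM in sham mice and 2.46, 3.86 and 6.48 CPM in YDS mice (lowest, median, highest), so that every YDS mouse lay below the sham median. The difference was -0.71 ± 0.18 (p = 0.000411, adjusted p = 0.211). Gbp2 was at 2.4, 4.64 and 9 CPM in sham and 0.716, 2.58 and 5.71 CPM in YDS mice (-0.69 ± 0.23, p = 0.00506, adjusted p = 0.286). Ifit3 was at 4.79, 8.44 and 23.8 CPM against 3.27, 7 and 8.39 CPM (-0.61 ± 0.25, p = 0.0167, adjusted p = 0.344). The medians of Ifit3 were close, and the arms parted at their upper ends, where no YDS mouse reached the sham median. Gbp7 was at 2.72, 4.6 and 8.8 CPM against 2.23, 3.51 and 6.5 CPM (-0.41 ± 0.17, p = 0.0215, adjusted p = 0.357).

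Without sham mouse H435, 2 members were lower at an unadjusted p under 0.05 and the median was -0.18, with 32 of 41 negative. The microglia marker mean ran from 4.91 to 5.99 in sham and from 4.74 to 5.27 in YDS mice. With it as a covariate, 2 members were lower and the median was -0.07. Without the 4 libraries with high Ttr, 5 members were lower. Shares of all genes at an unadjusted p are not given for these fits. With TMM factors, 36 members were negative and 10 lower at an unadjusted p under 0.05, while all genes moved from 935 higher and 856 lower to 753 and 1020. The choroid plexus and hippocampus comparisons use mice of the same arms, mostly the same animals, and they are plotted side by side.

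**Figure D3:**
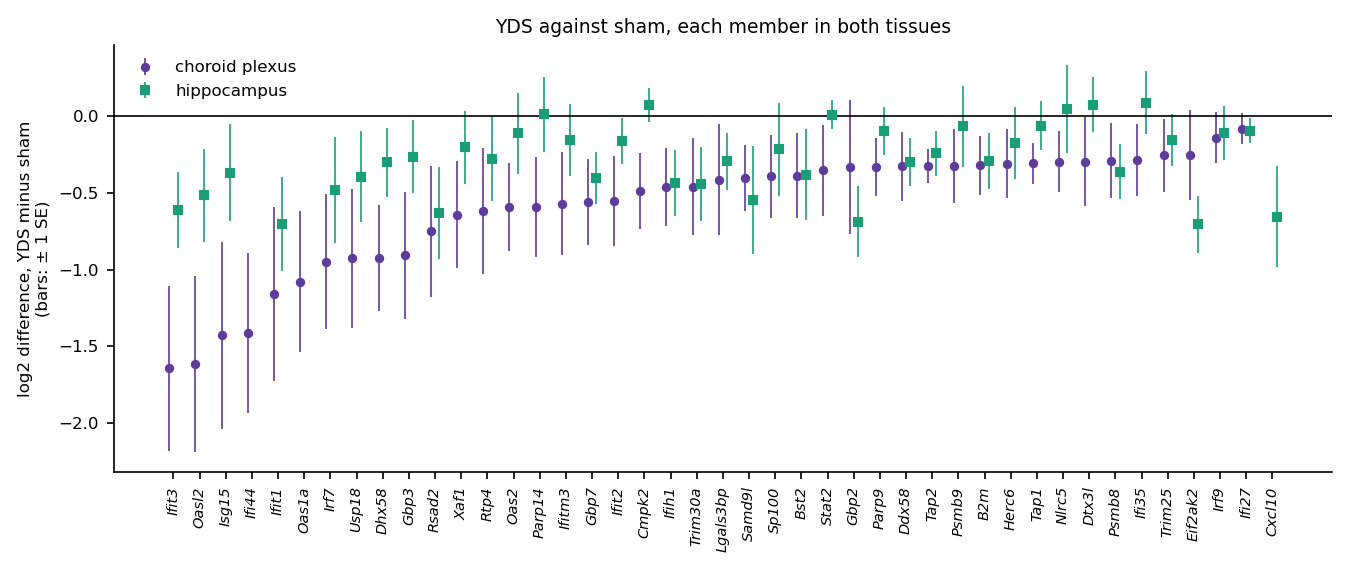
Difference between YDS and sham mice in log2(CPM + 0.5) for each member, ordered by the choroid plexus value, in the choroid plexus (circles) and hippocampus (squares), with bars of 1 SE from limma. All 42 choroid plexus values are below 0, from -1.64 for Ifit3 to -0.09 for Ifi27, and 35 of 41 hippocampus values are below 0, the lowest that of Eif2ak2 at -0.71.

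Between YS and sham mice the members' differences in the hippocampus lay on both sides of 0, and none was called. Differences ran from -0.52 (Isg15) to 0.46 (Nlrc5) with a median of -0.08, 26 negative and 15 positive. No member was called by limma, edgeR or DESeq2, while these methods called 5 (0.0346%), 1 and 353 of 14440 genes. B2m alone was lower at an unadjusted p under 0.05 by limma, against 9.71% of all genes lower and 7.72% higher. On recovered reads, edgeR and DESeq2 each had 2 members lower. B2m was at 27.3, 65.1 and 126 CPM in sham and 27.4, 42.8 and 76.9 CPM in YS mice, a difference of -0.42 ± 0.18 (p = 0.0264, adjusted p = 0.228). Gbp2 in YS mice was at 1.53, 2.92 and 6.33 CPM (-0.44 ± 0.23, p = 0.0676). Isg15 was at 0.99, 1.34 and 5.83 CPM in sham and 0, 1.14 and 6.88 CPM in YS mice (-0.52 ± 0.31, p = 0.107), and Gbp7 in YS mice at 2.2, 3.78 and 7.12 CPM (-0.28 ± 0.17, p = 0.112). Without sham mouse H435 the median of the members was -0.01. Of 10 microglia markers, 4 were lower in YS mice at an unadjusted p under 0.05 (median -0.15). With their mean as a covariate the direction turned: the members' median was 0.07, with 26 positive and 15 negative, and 2 were higher and 0 lower at that level. No share of all genes is given for this fit. With DESeq2's size factors the split of all genes at an unadjusted p under 0.05 moved from 1115 higher and 1402 lower to 1368 and 1168.

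Between YS and YDS mice, the hippocampus members were mostly higher in YS mice and none was called by limma, edgeR or DESeq2 (0% of all genes called by limma). Differences ran from -0.28 (Ifi35) to 0.51 (Trim30a), with a median of 0.18 against -0.01 over all genes, 33 positive and 8 negative. Here too the signs are not independent (median pairwise r of 0.35). By the unadjusted p (under 0.05), 5 of 41 members were higher and 0 lower by limma, against 1.24% of all genes higher and 5.05% lower. By edgeR and by DESeq2 9 were higher, with no share of all genes given. Of the 5, Ddx58, Dhx58 and Eif2ak2 are RNA sensors, and 3 of 6 sensors in the table were thus among them. Parp9 and the ubiquitin ligase Trim30a were the others. Ddx58, which encodes RIG-I, was at 4.57, 6.39 and 10.2 CPM in YS and 2.8, 4.49 and 7.98 CPM in YDS mice (0.43 ± 0.14, p = 0.0039, adjusted p = 0.737). Eif2ak2 in YS mice was at 2.87, 5.69 and 12.6 CPM (0.51 ± 0.17 above YDS, p = 0.00419, adjusted p = 0.737).

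Dhx58 was at 0.354, 1.81 and 4.08 CPM in YS and 0.389, 1.02 and 1.98 CPM in YDS mice (0.50 ± 0.20, p = 0.0176, adjusted p = 0.744). Trim30a was at 0.784, 1.72 and 4.2 CPM against 0.36, 0.906 and 2.49 CPM (0.51 ± 0.22, p = 0.0254, adjusted p = 0.744). For all 4 genes the arms overlapped, with the YS median above the YDS median. With TMM factors 33 members remained positive and 6 were higher at an unadjusted p under 0.05, while all genes moved from 179 higher and 729 lower to 296 and 530. With the microglia marker mean as a covariate 9 were higher and the median was 0.20, and this mean ran from 4.74 to 5.35 in YS and from 4.74 to 5.27 in YDS mice. All 6 choroid plexus epithelium markers in the table had positive differences (median 0.74), 3 of them at an unadjusted p under 0.05. With their mean as a covariate the members' median was 0.14, with 32 positive and 4 higher, and without the 4 libraries with high Ttr it was 0.10, with 30 positive and 5 higher. For the fits with a marker covariate or left-out libraries, shares of all genes at an unadjusted p are not given.

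Members with and without the response element in their promoter window were compared as a description. The median YDS against sham difference in the choroid plexus was -0.51 over 16 members with the core and -0.40 over 17 without it, and the median within-arm SD was 0.76 and 0.57. In the hippocampus the median differences were -0.42 over 16 members with the element and -0.17 over 16 without it, and the SDs were 0.59 and 0.48. Oasl2, with no match in the window printed above, had a difference of -1.61 in the choroid plexus, next to Ifit3, whose window holds 2 matches, at -1.64.

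Genes of the pathway outside the list were counted the same way. None of 9 interferon genes was among the rows of any table. No gene of the receptor, regulator, sensor, MHC class I and antigen-processing or other interferon-stimulated lists was called in a comparison of infusion arms. In the choroid plexus, 10 of 39 other interferon-stimulated genes and 3 of 11 further MHC class I and antigen-processing genes were lower in YDS than in sham mice at an unadjusted p under 0.05. Of all genes, 0.446% were lower at that level. In these lists 36 and 11 genes had negative differences. Such genes vary with the members, Ifit3b and Igtp at r = 0.93 with their mean, so the counts are not independent of the members. Ifit3b, a copy of Ifit3, differed by -1.28 (p = 0.00669, adjusted p = 1). In the hippocampus, 7 of 31 and 2 of 11 were lower in YDS mice, against 5.93% of all genes. Among them were Gbp6 at -0.80 (p = 0.00334), which also follows the members' mean (r = 0.73), and H2-D1, an MHC class I heavy chain, at -0.36. Ifngr2, a subunit of the interferon gamma receptor, was higher by 0.22 (p = 0.00121). Between YS and sham mice in the hippocampus, all 11 MHC class I and antigen-processing genes had negative differences, with H2-D1 at -0.43 (p = 0.0036), and in the choroid plexus Igtp differed by -0.63 (p = 0.0108).

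To see whether a mouse with high members in the choroid plexus also had them high in the hippocampus, the levels of 34 mice were correlated gene by gene after centring on the arm. No member passed this test. The members' median Pearson's r was -0.06 with a range from -0.40 (Ifi35) to 0.48 (Lgals3bp), and 17 of 40 were positive. Over 12609 genes the median was -0.03 and 45.3% were positive. A permutation test within arms (100000 resamples, two-sided) called 1.12% of genes at an adjusted p under 0.05 (65 positive, 76 negative) and 0 of 40 members. Only 2 members were under an unadjusted p of 0.05, against 13% of all genes, and Spearman's rho called 0 members and 51 genes. Lgals3bp had r = 0.48 (permutation p = 0.00632, adjusted p = 0.164) and rho = 0.45 (permutation p = 0.00991, adjusted p = 0.232). Its r was 0.35 without the 2 mice farthest from the choroid plexus median and 0.17 within the Ttr sets. Within the Ttr sets the members ran from -0.38 to 0.27 with 10 positive.

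Mouse C410, with the highest choroid plexus mean (6.06), ranked 3 of 34 in the hippocampus (2.73), and mouse H435, the highest there (3.12), ranked 3 in the choroid plexus (5.44). In contrast, sham mouse C434 ranked 8 in the choroid plexus (4.99) and 34 in the hippocampus (1.69), and YS mouse C430 ranked 2 (5.46) and 17 (2.04). YS mouse H423 ranked 22 in the choroid plexus (4.22) and 2 in the hippocampus (2.82).

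**Figure D4:**
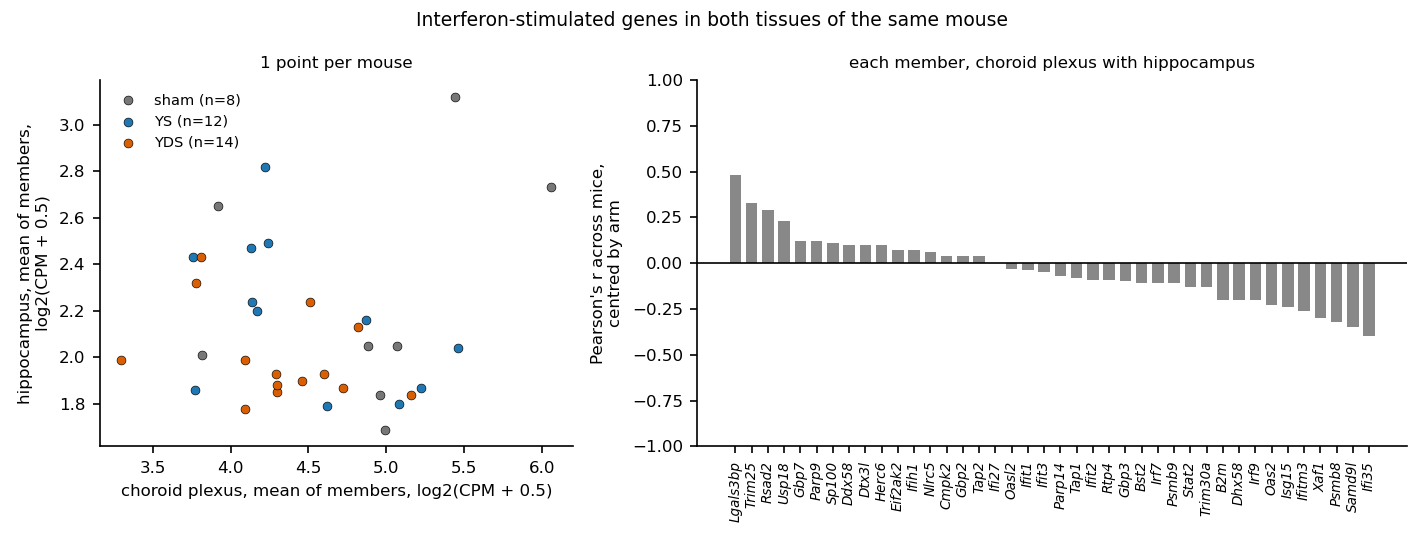
Left, mean of the members in the choroid plexus against that in the hippocampus of the same mouse, as log2(CPM + 0.5), with 1 point per mouse coloured by arm. Right, Pearson's r between both tissues over 34 mice for each member after centring on the arm, from 0.48 for Lgals3bp to -0.40 for Ifi35.

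In Klko mice, 2 of 39 members were called against WT-y mice by limma, 1 lower and 1 higher, while 11.3% of all genes were called (6.44% lower and 4.83% higher), so the members' share is below the background. By unadjusted p under 0.05, 2 members were higher and 1 lower, against 12.7% and 16.3% of all genes. Differences ran from -0.45 (Stat2) to 0.60 (Dhx58) with a median of 0.01, 21 positive and 18 negative. Stat2, a signalling protein of the type I interferon receptor, was at 18.2, 16, 19 and 19.3 CPM in Klko 1 to 4 and at 26.7, 21.2, 26.1 and 26 CPM in WT-y 1 to 4. The groups did not overlap, and the difference was -0.45 ± 0.11 (SE, adjusted p = 0.0194). Dhx58 was at 1.48, 1.85, 2.19 and 1.59 CPM in Klko and at 1.03, 1.14, 0.915 and 0.87 CPM in WT-y mice. These groups did not overlap either, and the difference was 0.60 ± 0.16 (adjusted p = 0.0241). Both were called as well by edgeR and DESeq2, under other scaling factors and pseudocounts.

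Both calls were lost when only the 8 libraries of these groups were fitted (adjusted p = 0.0856 and 0.107), with the differences of -0.45 and 0.60 as before, while the genes called fell from 1687 to 8 higher and 12 lower. They were also lost with the microglia marker mean as a covariate (adjusted p = 0.21 and 0.196), where the differences were -0.30 and 0.51 and 27 genes were called higher and 48 lower, and without WT-y 1 or WT-y 3. Dhx58 alone was lost without Klko 3 or WT-y 4 (adjusted p = 0.0708 and 0.0616). The microglia markers summed to 468 to 534 CPM in Klko and 384 to 530 CPM in WT-y mice, and 5 of 10 were higher in Klko mice at an unadjusted p under 0.05. All 12 choroid plexus epithelium markers had negative differences (median -1.11), and with their mean as a covariate both calls held. Both held as well without Klko 1, the Klko library low in Ttr. Without the 5 libraries high in striatal markers, which leaves 1 Klko mouse whose spread is assumed like that of the others, Stat2 (-0.70, adjusted p = 0.0275) and Psmb8 (1.05, adjusted p = 0.0405) were called and Dhx58 (0.71, adjusted p = 0.127) was not. The median of the members was then 0.31, with 31 positive and 8 negative, and 375 genes were called higher and 668 lower. In all libraries Psmb8 was at 5.96, 6.26, 4.83 and 3.23 CPM in Klko and at 3.36, 5.08, 2.69 and 2.34 CPM in WT-y mice, with overlap (0.54 ± 0.22, adjusted p = 0.12). Irf7 was at 2.39, 3.61, 4.29 and 1.95 CPM against 1.4, 3.02, 2.16 and 1.81 CPM (0.44 ± 0.26, adjusted p = 0.284).

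Outside the list, Klko mice had 3 of 11 MHC class I and antigen-processing genes higher, H2-Q4 (0.67, adjusted p = 0.031), H2-D1 (0.47, adjusted p = 0.0436) and Psme2, a proteasome activator (0.58, adjusted p = 0.0285), and 10 of the 11 had positive differences. The receptor kinase Jak1 was lower (-0.32, adjusted p = 0.0192), as were Tbk1, a kinase that activates interferon production (-0.28, adjusted p = 0.0416), and Ly6e (-0.36, adjusted p = 0.0181). Irf5 was higher (0.58, adjusted p = 0.0495). In this fit 11.3% of all genes were called, 6.44% lower and 4.83% higher. Jak1, Tbk1, Ly6e and Irf5 are named from longer lists, whose shares of called genes are not given. Genes called over all fell from 1687 to 20 with only the groups compared and to 75 with the microglia marker covariate. Whether these pathway calls held there is not given.

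Between Klhet and WT-o mice, no member was called by limma (0% of all genes), edgeR or DESeq2. Differences ran from -0.52 (Xaf1) to 0.19 (Psmb8), with a median of -0.14, 32 negative and 7 positive. These signs are not independent, since the members vary together (median pairwise r of 0.33 in the Klotho libraries). At an unadjusted p under 0.05, 3 of 39 members were lower by limma, and 0 higher, against 7.5% and 3.8% of all genes, and 1 was lower by edgeR and by DESeq2. Stat2 was at 19.9, 20.2, 22.6, 23.6 and 19.9 CPM in Klhet 1 to 5 and at 30.4, 27.4, 22.9 and 21.5 CPM in WT-o 1 to 4, with overlap (-0.25 ± 0.11, adjusted p = 0.417). Ddx58 was at 3.81, 3.71, 5.64, 4.52 and 5.74 CPM against 5.89, 6.53, 6.17 and 5.93 CPM, and all Klhet mice were below all WT-o mice (-0.38 ± 0.16, adjusted p = 0.417). Xaf1, a pro-apoptotic partner of XIAP, was at 3.15, 3.41, 2.33, 2.35 and 2.75 CPM against 3.79, 5.14, 4.68 and 3.38 CPM (-0.52 ± 0.22, adjusted p = 0.424).

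Ifih1, which encodes the RNA sensor MDA5, was at 4.9, 3.17, 4.23, 4.4 and 3.67 CPM in Klhet and 6.16, 5.53, 4.28 and 4.11 CPM in WT-o mice (-0.27 ± 0.15, adjusted p = 0.472). The scaling changed the background here: with TMM factors all genes at an unadjusted p under 0.05 moved from 568 higher and 1122 lower to 1002 and 598, and 1 member was at that level. The members at that level also depended on single mice: without WT-o 2 there were 0 and the median was -0.07, with 26 negative, and without Klhet 3 there were 7 lower and the median was -0.21. All 12 choroid plexus epithelium markers had negative differences (median -1.12). With their mean as a covariate the median of the members was -0.08, with 25 negative and 1 lower at an unadjusted p under 0.05, and without Klhet 5 it was -0.10, with 26 negative and 2 lower. All 6 striatal markers had negative differences as well (median -0.99), and without the libraries high in them 1 member was lower and the median was -0.07. The microglia marker mean ran from 5.13 to 5.28 on the log2 scale in Klhet and from 4.88 to 5.23 in WT-o mice. With it as a covariate 0 genes were called, and the members' median in that fit is not given.

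With age in wild-type mice, WT-o against WT-y, 36 of 39 members had positive differences, from -0.09 (Cmpk2) to 0.83 (Xaf1) with a median of 0.20, and none was called by limma, with 0.0468% of all genes called. As the members vary together (median pairwise r of 0.33 in the Klotho libraries), these signs are not independent. DESeq2 called 1 member, among 117 genes called, and edgeR 0. At an unadjusted p under 0.05, 5 members were higher and 0 lower by limma, against 4.7% of all genes higher and 3.3% lower. These were Tap2, Xaf1, Dhx58, Psmb9 and Psmb8, 3 of them in antigen processing. Tap2 was at 10.2, 10.1, 8.03 and 9.35 CPM in WT-y and at 13.5, 12.5, 12.7 and 12.5 CPM in WT-o mice, with no overlap (0.43 ± 0.10, adjusted p = 0.216). Xaf1 was at 2.22, 4.05, 1.42 and 1.54 CPM in WT-y mice, of which WT-y 2 lay among the WT-o mice and the other 3 below all of them (0.83 ± 0.24, adjusted p = 0.301). Dhx58 was at 1.49, 1.54, 1.92 and 1.35 CPM in WT-o mice, all above WT-y (0.47 ± 0.16, adjusted p = 0.369).

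Psmb9 was at 1.54, 1.98, 1.19 and 0.845 CPM in WT-y and 1.73, 2.48, 3.13 and 2.29 CPM in WT-o mice (0.64 ± 0.23, adjusted p = 0.429). Without WT-y 2, Tap2, Xaf1 and Psmb8 were called, among 267 higher and 316 lower genes of 14964. The same 3 were called without the libraries high in striatal markers, among 629 higher and 860 lower genes. Markers of other cells moved in this comparison too: all 3 B and plasma cell markers were higher at an unadjusted p under 0.05 (median 1.05), 3 of 4 oligodendrocyte markers were lower (median -0.66), and all 12 choroid plexus epithelium markers had positive differences (median 0.43). With the choroid plexus marker mean as a covariate the members' median was 0.16, with 33 positive. The microglia marker mean ran from 4.74 to 5.31 on the log2 scale in WT-y and from 4.88 to 5.23 in WT-o mice. With it as a covariate 1 gene was called higher and 1 lower, none of them a member, and the members' median in that fit is not given. The part of the B and plasma cell and oligodendrocyte markers in the result was not tested. All 11 MHC class I and antigen-processing genes outside the members had positive differences and 5 were higher at an unadjusted p under 0.05, with H2-D1 at 0.62 (p = 0.000441) and H2-K1 at 0.66 (p = 0.00136). With TMM factors the split of all genes at that level moved from 704 higher and 494 lower to 521 and 744.

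**Figure D5:**
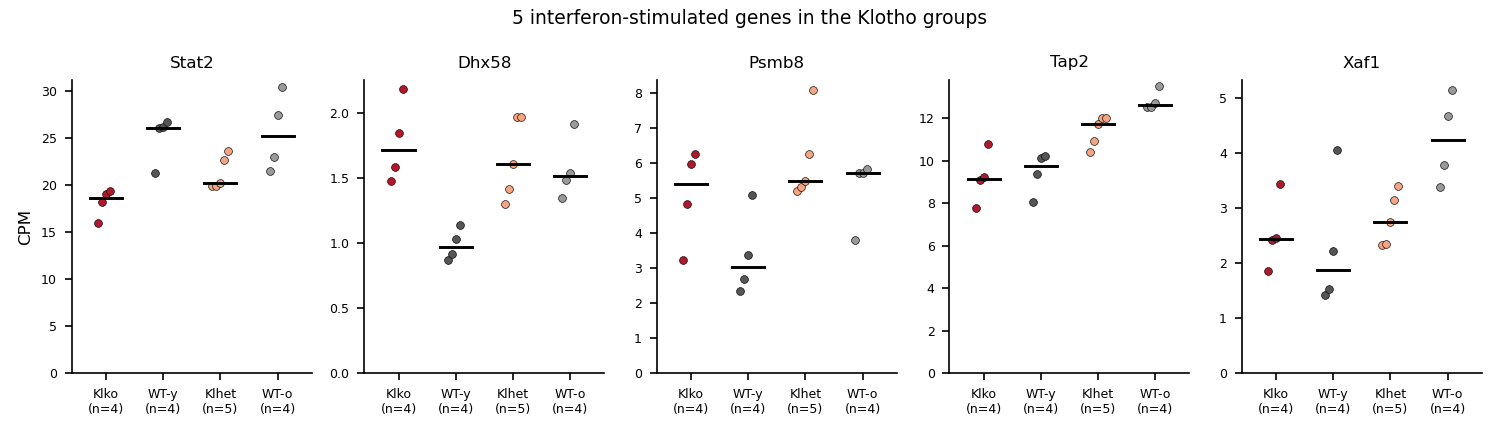
CPM of Stat2, Dhx58, Psmb8, Tap2 and Xaf1 in each Klotho hippocampus library by group, with the median as a line and axes starting at 0. Stat2 is lower and Dhx58 higher in all 4 Klko mice than in all 4 WT-y mice, and Tap2 is higher in all 4 WT-o mice than in all 4 WT-y mice.

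The effect of the knockout minus that of the heterozygous genotype was tested directly. No member was called by limma (0% of all genes), edgeR or DESeq2, and DESeq2 called 48 genes. Differences of effects ran from -0.37 (Rsad2) to 0.70 (Xaf1) with a median of 0.18, 32 positive and 7 negative. Since the members vary together, these signs are not independent either. At an unadjusted p under 0.05, 2 members were positive and 0 negative by limma, against 5.44% and 3.43% of all genes, and 1 was positive by edgeR and by DESeq2. With TMM factors the split of all genes moved from 814 positive and 514 negative to 682 and 780. The members were Dhx58 (0.56 ± 0.22, p = 0.0202, adjusted p = 0.48) and Xaf1 (0.70 ± 0.33, p = 0.0453, adjusted p = 0.554). Xaf1 was at 2.45, 2.42, 3.43 and 1.86 CPM in Klko mice. Parp14, an ADP-ribosyltransferase, and Lgals3bp followed at 0.50 ± 0.27 (adjusted p = 0.624) and 0.57 ± 0.36 (adjusted p = 0.688). Parp14 was at 3.76, 3.87, 3.85 and 2.84 CPM in Klko, 3.81, 3.45, 2.57 and 1.76 CPM in WT-y, 2.57, 2.43, 3.64, 3.91 and 2.59 CPM in Klhet and 4, 3.57, 2.99 and 3.46 CPM in WT-o mice. Lgals3bp ranged from 8.02 to 16.2 CPM in Klko, 7.62 to 13 CPM in WT-y, 5.57 to 15.6 CPM in Klhet and 10.2 to 13.7 CPM in WT-o mice, so the groups overlapped.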

How the data were processed

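RNA was extracted with RNeasy kits, kept at a RIN over 8 and sequenced as paired ends on an Illumina NovaSeq. The authors mapped reads to mm10 (Subread), summarised them over genes by featureCounts and deposited CPM (per the labels and the study's methods). For its own tests the study normalised library sizes with edgeR's scaling factors. The deposited CPM were taken here as reads scaled to the library total, without trimmed-mean factors. Values are whole multiples of 1 read within 0.05 of a read in 89 of 89 libraries, so reads and depth were recovered from them. There were 0 unused columns of per-sample values.

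Members and pathway lists were chosen with earlier results of these data known. Each table was fitted with limma 3.58.1 (R 4.3.3, trend) on log2(CPM + 0.5), with all groups or arms in 1 fit and no covariate. P-values were two-sided and adjusted by Benjamini-Hochberg over all genes. Values in every library were given for the members called in a comparison (at most 6), or, with fewer than 4 called, for the 4 with the smallest p. Since CPM are not counts, edgeR 4.0.16 and DESeq2 1.42.0 on recovered reads served as alternatives, as did TMM and RLE factors, pseudocounts of 0.1 and 1, a minimum mean of 1 CPM, marker covariates and left-out libraries. The fits were tested on simulated data. Shares of all genes at an unadjusted p under 0.05 come from the main limma fit unless another fit is named. They are not the background of member counts by edgeR, DESeq2 or other fits. From the Klotho table, 3 repeated symbols were left out. Date-like symbols were restored. Promoter windows came from RefSeq. Some pathway results are not reported here.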

Additional observations from a re-analysis of the deposited data

Results flagged for a closer look

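In 4 of 70 groups of 4 to 10 libraries tested, 1 library lay far from the rest by Dixon's criterion, and chance flags about 5% of groups. Values are log2(CPM + 0.5). Parp14 was at 1.74 in Klko 4, the lowest of 4 Klko mice, with the next at 2.09. Stat2 was at 4.44 in WT-y 2, the lowest of 4 WT-y mice, with the next at 4.73, and this mouse also had high striatal markers. Psmb8 was at 2.11 in WT-o 1, the lowest of 4 WT-o mice, with the next at 2.64. Gbp2 in the choroid plexus was at 3.46 in sham mouse C434, the highest of 8 sham mice, with the next at 1.62, and this library was the sham library high in border macrophage markers. Whether these markers account for the values was not tested.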

How the results depend on the processing

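In Klko against WT-y mice, the 2 members called became 0 when only the groups compared were fitted, where Stat2 and Dhx58 kept differences of -0.45 and 0.60 and the genes called fell from 1687 to 20, and 0 with the microglia marker covariate (-0.30 and 0.51, with 75 genes called), and ran from 0 to 3 when 1 mouse at a time was left out. In WT-o against WT-y mice, the count of 0 became 1 with DESeq2 (117 genes called) and 3 without the libraries high in striatal markers (1489 genes called), and ran from 0 to 3 when 1 mouse at a time was left out. In the choroid plexus of YS against YDS mice, the count of 0 became 1 with edgeR and 3 with DESeq2, with 400 and 563 of 13662 genes called, and with the microglia marker covariate Oas2 (-0.039), Gbp2 (-0.20) and Psmb8 (-0.13) changed sign. For Klhet against WT-o mice and for the difference of the knockout and heterozygous effects, the count stayed at 0 whichever mouse was left out. In the Klotho groups, same-numbered mice correlated between -0.48 and 0.02, so the numbers were not taken as pairs, and with a replicate block 2 members were called in Klko against WT-y mice and 0 in the other 3 comparisons. Planned fits with Xist as a covariate were not run, since Xist was not among the genes used here. The causes of these changes were not tested. Counts at an unadjusted p under 0.05 moved most in the choroid plexus of YDS against sham mice, from 1 higher and 0 lower in the libraries high in Ttr to 36 lower in those lower in Ttr. The fits without sham mouse C410, sham mouse H435, YS mouse C430, the Ttr sets, the border macrophage libraries and the striatal libraries were chosen after seeing the data, as was the correlation between tissues.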
